A study of Mus musculus with 12 samples.

Results

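Biliary and simple epithelial keratins are the intermediate filament proteins of single-layered epithelia, and 7 of their genes were followed here, Krt7, Krt8, Krt18, Krt19, Krt20, Krt23 and Krt80. They were chosen by name, as keratins known from bile ducts, hepatocytes and other simple epithelia, among 21807 genes in the deposited count tables, which hold 46 other keratin genes. The choice was made with earlier results of these data known, so counts of calls among the 7 genes describe this set only. The livers came from the NICD1/Akt model of cholangiocarcinoma (CCA), in which plasmids are forced into hepatocytes by hydrodynamic tail vein injection (HTVi) and a Sleeping Beauty transposase inserts the transgenes into the genome. The C57BL/6J mice of the NICD1/Akt groups received 10 µg of the NICD1 plasmid (the active intracellular part of the Notch1 receptor) and 10 µg of the myr-AKT plasmid (membrane-bound, active AKT), and are described as male and 5 weeks old at injection.

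Poly(A) RNA of 12 livers was counted in 4 groups of 3 libraries. The NICD1/Akt livers, labelled liver (CCA tumor), were taken 2 weeks (libraries 33, 34 and 35) and 3 weeks (libraries 1, 2 and 3) after HTVi. The controls, labelled WT liver, are described as not injected but carry the same time labels, 2 weeks (libraries 30, 31 and 32) and 3 weeks (libraries 10, 11 and 12). A NICD1/Akt sample is whole excised tissue labelled tumor, in which remaining hepatocytes, duct cells, fibroblasts and tumor cells are mixed. The labels do not state whether a group's libraries are different animals, and the p-values here cover only the spread among libraries, which may be technical. Each library held 13136892 to 19594839 counts, and 3 counts, the most that a count of 0 allows, came to 0.111 to 0.261 CPM (counts relative to library size, scaled by TMM over all 12 libraries).

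Keratins form filaments as obligate pairs of a type I and a type II chain. Krt8 (type II) and Krt18 (type I) are the only major pair of hepatocytes, whereas cholangiocytes add Krt7 (type II) and Krt19 (type I), and Krt7 and Krt19 are the usual histological markers of bile ducts and of CCA. Krt20 (type I) is best known from intestinal and gastric epithelium, urothelium and Merkel cells, Krt23 (type I) from ductular reactions and gastrointestinal tumors, and Krt80 (type II) from differentiating epithelia with desmosomes.

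Promoter windows of RefSeq on build GRCm38.p6 were at hand for 5 of the 7 genes (Krt7, Krt8, Krt18, Krt20 and Krt23). The type I genes Krt20 and Krt23 lie on chromosome 11, as does Krt19, and the type II genes Krt7 and Krt8 lie on chromosome 15, as does Krt80. Krt18 is the exception among type I genes and lies on chromosome 15, beside Krt8. The sequences of 4 are shown because Krt20 and Krt7 were the keratins that differed most between the stages, and Krt8 and Krt18 the pair that changed together. Each is printed 5′ to 3′ on the strand of the gene, from 250 bases before the annotated start to base 5 after it. Capitals mark motif matches on either strand, searched in the full window of 300 bases:
Krt20, chr11:99438149-99438403, minus strand: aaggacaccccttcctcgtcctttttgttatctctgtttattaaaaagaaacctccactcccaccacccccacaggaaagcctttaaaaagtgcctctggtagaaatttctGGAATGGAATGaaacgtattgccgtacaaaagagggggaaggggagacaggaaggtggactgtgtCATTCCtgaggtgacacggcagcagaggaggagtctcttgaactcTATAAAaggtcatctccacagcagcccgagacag
Krt7, chr15:101412153-101412407, plus strand: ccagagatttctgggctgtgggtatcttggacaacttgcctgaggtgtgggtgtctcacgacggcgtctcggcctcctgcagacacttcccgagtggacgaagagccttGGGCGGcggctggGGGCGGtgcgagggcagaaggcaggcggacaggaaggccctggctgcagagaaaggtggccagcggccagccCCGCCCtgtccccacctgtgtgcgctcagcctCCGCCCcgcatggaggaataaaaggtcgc
Krt8, chr15:102004338-102004592, minus strand: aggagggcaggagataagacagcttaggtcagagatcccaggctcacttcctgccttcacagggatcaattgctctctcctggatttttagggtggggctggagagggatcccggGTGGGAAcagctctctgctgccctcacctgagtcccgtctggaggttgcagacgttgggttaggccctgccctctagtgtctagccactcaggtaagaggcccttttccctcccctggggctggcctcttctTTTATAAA
Krt18, chr15:102027966-102028220, plus strand: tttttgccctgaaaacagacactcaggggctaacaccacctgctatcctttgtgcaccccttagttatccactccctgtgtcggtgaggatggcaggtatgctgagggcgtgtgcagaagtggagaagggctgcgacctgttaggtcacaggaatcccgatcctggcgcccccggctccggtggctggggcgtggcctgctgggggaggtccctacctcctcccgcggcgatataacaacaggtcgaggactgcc

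Among the motifs searched were GTGGGAA for RBPJ (the DNA-binding partner of NICD1), GGAATG for TEAD, TGANTCA for AP-1, GGGCGG for SP/KLF and TATAAA for the TATA box. The Krt20 window held GGAATG 3 times, with first bases at -139, -134 and -74, and TATAAA at -29. The first 2 of these matches to GGAATG share a base. At least 1 GGAATG was found in 14.7% and TATAAA in 13.6% of all 32851 windows of this length. The Krt7 window held GGGCGG 4 times, at -141, -128, -56 and -24, a motif present in 35.7% of all windows. The Krt8 window held GTGGGAA once, at -135 (6.38% of all windows), and TATAAA on both strands in overlapping letters at -3 and -1 from the annotated start. The Krt18 and Krt23 windows held none of these motifs, and TGANTCA (7.81% of all windows) was in none of the 5 windows. These matches describe letters in a window and no binding.

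Before any comparison, 2 libraries stood apart from their groups. In control library 32 the summed RNA of 17 biliary epithelial genes other than keratins (among them Spp1, Epcam, Sox9 and Cftr) was 2329 CPM. The sum was 243 to 257 CPM in control libraries 30 and 31 and 1412 to 5281 CPM in the 2-week NICD1/Akt group. Spp1 alone was at 53.6 to 56.4 CPM in libraries 30 and 31 and 1054 to 4245 CPM in that NICD1/Akt group. Most of the sum of library 32 was Spp1, at 1871 CPM. Akt1 was at 381 CPM and Notch1 at 106 CPM in this library, where libraries 30 and 31 held 89.9 to 90.6 CPM and 48.9 to 53.6 CPM. Outside library 32, Akt1 was at 74.5 to 90.6 CPM in controls and 285 to 925 CPM in NICD1/Akt livers, and Notch1 at 42.1 to 53.6 CPM and 100.8 to 414 CPM. The Y-linked Ddx3y was at 57 CPM in library 32, 0 in libraries 30 and 31 and 0 to 0.399 CPM in the 2-week NICD1/Akt livers. At 3 weeks it was at 120 to 126 CPM in controls and 52.4 to 61.2 CPM in NICD1/Akt livers, so the groups of that stage differ in it without overlap. The values of the 2-week NICD1/Akt livers go against their description as male. The values of library 32 go against its WT control label. It is kept under that label, and the doubt touches every value of the 2-week comparison and of the comparisons between stages. The stages therefore differ in sex-linked RNA as well as in time, which cannot be told apart, and the NICD1/Akt library 35 had the highest biliary sum of its group. The fitted 2-week values of the keratins are given with and without library 32 and library 35.

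**Figure D1:**
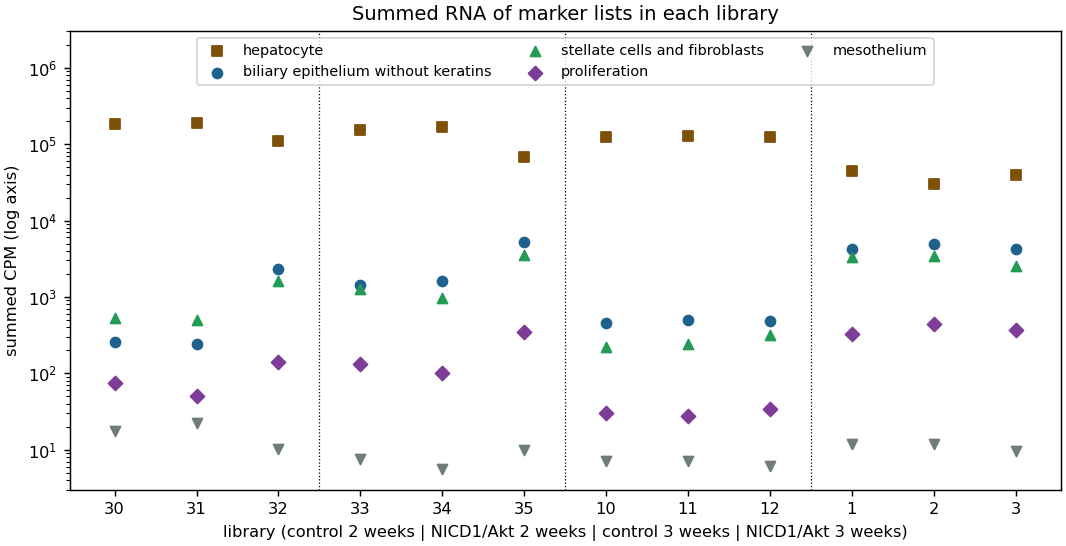
Summed CPM (log axis) of marker lists in each of the 12 libraries, ordered by group. The biliary sum of control library 32 (2329 CPM, mostly Spp1) sits among those of the NICD1/Akt livers. In libraries 35, 1, 2 and 3 the hepatocyte sums are at their lowest and the biliary, fibroblast and proliferation sums at their highest.

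The question of the 3-week comparison is which keratins differ between advanced NICD1/Akt tissue and control liver. At that stage Krt7, Krt19, Krt20, Krt23 and Krt80 were higher in NICD1/Akt livers by log2 fold changes of 3.31 to 9.01. Krt8 and Krt18, the pair that hepatocytes and cholangiocytes share, did not pass the test in either direction. All 7 genes passed the filter on low counts, and 5 of 7 were called higher and 0 lower at an adjusted p under 0.05. Of the 13408 genes tested, 38.9% were higher and 33.1% lower, so calls were common at this stage. Of all calls 54.1% were higher, against 62.7% with upper quartile scaling and 87.6% with library size alone. The groups did not overlap for the same 5 keratins, all higher, and 37.7% of all genes were higher without overlap. The median log2 fold change of the 7 keratins was 3.63 and that of all genes 0.06. In bulk tissue, more cells with a keratin and more keratin RNA per cell cannot be told apart.

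Krt19, the biliary type I keratin, measured 3.02, 4.79 and 4.42 CPM in control libraries 10, 11 and 12, whereas libraries 1, 2 and 3 of the NICD1/Akt group held 50.2, 58.6 and 31.3 CPM. The lowest value of the tumor tissue was well above the highest control. Its log2 fold change was 3.63 ± 0.27 (SE), or 12.4-fold, with an adjusted p of 9.43e-06. Krt7, its usual type II partner in bile ducts, measured 0.949, 0.348 and 1.08 CPM in controls and 36.9, 33.9 and 31.1 CPM in NICD1/Akt livers. The 3 NICD1/Akt values were close together, at 34 ± 2.88 CPM (SD, n = 3), and all far above the controls. Krt7 rose by a log2 fold change of 5.52 ± 0.24 (SE), or 45.8-fold, with an adjusted p of 6.5e-07.

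Krt20, the intestinal and urothelial keratin, was nearly absent from controls, with 2, 0 and 0 counts in libraries 10, 11 and 12. NICD1/Akt libraries 1, 2 and 3 held 671, 764 and 810 counts of it, or 25.4, 28.3 and 37.9 CPM. With 2 counts in all controls together, the ratio was 526 with a 95% counting interval of 146 to 4349.9, and the adjusted p was 1.05e-06 at a fitted log2 fold change of 9.01. An absence from a control library allows up to 3 counts, and such intervals cover counting error only. Of 11 other genes of intestinal and gastric epithelium, Cdx1, Cdx2, Gkn1, Gkn2 and Muc5ac were at 0 counts in all 12 libraries. The list summed to 52.9 to 63.8 CPM in 3-week controls and 17.5 to 34.9 CPM in NICD1/Akt livers. Of the 3 that could be tested, Vil1, an actin bundler of microvilli, rose by 3.21 on the log2 scale. The fatty acid carrier Fabp2 fell by 1.5, and Lgals4 came to 0.30 without passing. Fabp2 had means of 52.5 CPM in 3-week controls and 17.1 CPM in NICD1/Akt livers, so the fall of the sum is mostly that of Fabp2. Mesothelium is another source of simple keratins, and its 7 markers summed to 6.17 to 7.16 CPM in controls of this stage and 9.49 to 11.9 CPM in tumor tissue. Of its 6 tested genes 2 were higher (Wt1 by 3.69 and Msln by 1.5 on the log2 scale), near the 38.9% of all genes that were higher. The part of mesothelium in the keratin values was not tested.

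Krt23 measured 0.172, 0.348 and 0.417 CPM in controls, which are only 2, 4 and 5 counts. It measured 3.26, 6.03 and 3.83 CPM in NICD1/Akt livers, with no overlap. Its log2 fold change was 3.89 ± 0.42 (SE), with an adjusted p of 7.24e-05. Krt80 measured 0.0862, 0.174 and 0.917 CPM in controls, from 1, 2 and 11 counts, and 3.18, 4.37 and 3.55 CPM in NICD1/Akt livers. Control library 12 held most of the Krt80 of its group but stayed below every NICD1/Akt liver. Krt80 rose by 3.31 ± 0.53 (SE) on the log2 scale, with an adjusted p of 5.66e-04. Some sequence of Krt80 is shared with an antisense gene, Gm35853, but at 2.74% of its 50-base stretches.

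Krt8 measured 628, 433 and 963 CPM in controls and 677, 949.8 and 535 CPM in NICD1/Akt livers. Krt18 measured 651, 532 and 901 CPM in controls and 576, 801 and 459 CPM in NICD1/Akt livers. For both genes the ranges of the groups lay over each other, and the spread within a group exceeded the difference between the means. The log2 fold change of Krt8 was 0.21 (95% interval -0.49 to 0.91, adjusted p = 0.557) and that of Krt18 -0.07 (-0.64 to 0.50, adjusted p = 0.814). A change of about 2-fold in either direction thus lies outside the interval of both, and smaller ones cannot be told from none. Scaling matters here: with library size alone, which moves the median of all genes from 0.06 to 0.77, Krt8 came to 0.93 and Krt18 to 0.65 (adjusted p = 0.0231 and 0.0459), but relative to that median they stood at 0.16 and -0.12, as in the TMM fit (0.15 and -0.13). A further limit is that 29.7% of the 50-base stretches of Krt8 transcripts also occur in other genes, mostly the pseudogene Krt8-ps, so some Krt8 counts are uncertain. Of 14 genes that mark hepatocytes, 12 fell at the same stage, where 33.1% of all genes were lower. Among the 12 were Cps1 (-1.85), Apob (-1.66), Cyp3a11 (-1.68) and Hnf4a (-1.61). The sum of the 14 genes was 122189 to 125837 CPM in controls and 29776 to 45111 CPM in NICD1/Akt livers.

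**Figure D2:**
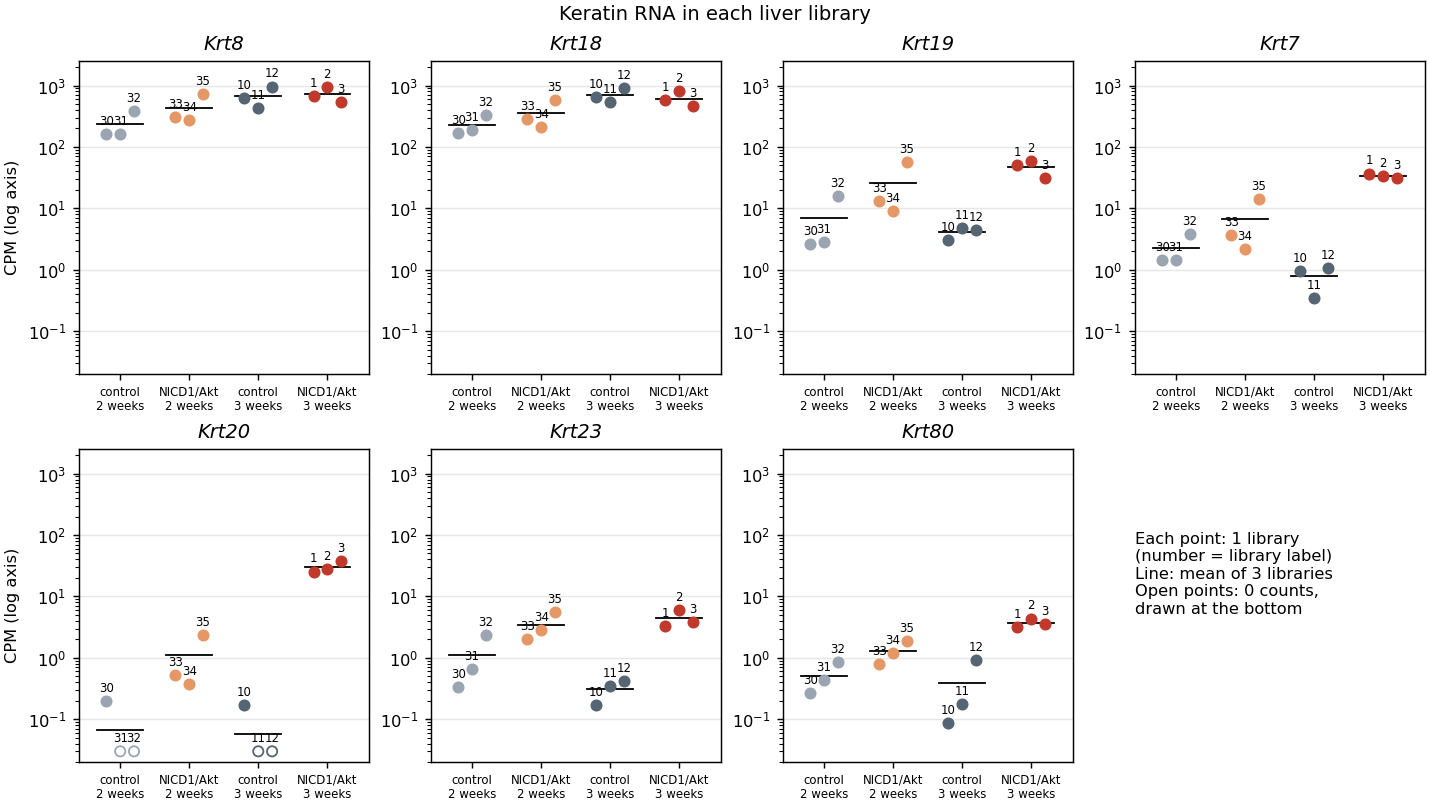
CPM of each keratin (log axis) in every library, with the mean of each group as a line and 0 counts as open points at the bottom. Krt7, Krt19, Krt20, Krt23 and Krt80 are separated between control and NICD1/Akt libraries at 3 weeks, Krt8 and Krt18 overlap, and at 2 weeks libraries 32 and 35 are the highest of their groups except for Krt20 in library 32.

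The 2-week comparison asks the same of the early stage. There all 7 keratins were higher on average in NICD1/Akt livers, but of the 6 tested 0 passed and none was separated from controls. In each group 1 library stood far from the rest, library 32 among controls and library 35 among NICD1/Akt livers. No gene of 13041 tested passed at this stage (0%), while 8.59% had an unadjusted p under 0.05 and 16% had groups that did not overlap. By other tools, DESeq2 called 12 genes higher and 13 lower, the likelihood ratio test 7 and 5 and limma-voom 0, with no keratin among them. Of the keratins, 0 of 6 had an unadjusted p under 0.05 in edgeR. The median log2 fold change was 1.48 over the 6 keratins and 0.01 over all genes.

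Krt19 measured 2.59, 2.88 and 15.8 CPM in control libraries 30, 31 and 32 and 13.2, 9.16 and 56.2 CPM in libraries 33, 34 and 35 of the NICD1/Akt group. Library 32 lay above 2 of the 3 NICD1/Akt livers. The log2 fold change was 1.91 ± 0.97 (SE) with an adjusted p of 0.520, 3.30 (adjusted p = 0.206) without library 32 and 0.65 (adjusted p = 0.881) without library 35. Krt7 measured 1.46, 1.44 and 3.78 CPM in controls and 3.72, 2.14 and 14.2 CPM in NICD1/Akt livers, a log2 fold change of 1.62 ± 0.79 (SE, adjusted p = 0.520). Again library 32 exceeded libraries 33 and 34. Without library 32 the value for Krt7 was 2.25 (adjusted p = 0.270), and without library 35 it was 0.39 (adjusted p = 0.895).

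Krt20 did not pass the filter on low counts at 2 weeks. It had 3, 0 and 0 counts in controls and 8, 5 and 61 in NICD1/Akt livers, a ratio of 19.1 with a 95% counting interval of 6.30 to 94.9. The groups did not overlap, but 1 library, 35, held most of the counts. Library 32 had no count of Krt20, although its Krt19 was 5.79 times, its Krt23 4.73 times and its Krt7 2.61 times the mean of libraries 30 and 31.

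Krt23 measured 0.332, 0.647 and 2.31 CPM in controls and 1.99, 2.88 and 5.53 CPM in NICD1/Akt livers, a log2 fold change of 1.69 ± 0.76 (SE). Krt80 measured 0.265, 0.431 and 0.848 CPM in controls and 0.797, 1.18 and 1.88 CPM in NICD1/Akt livers, a log2 fold change of 1.35 ± 0.58 (SE). For both, the control of library 32 reached into the range of the NICD1/Akt livers, and the adjusted p was 0.520. Krt8 measured 165, 164 and 385 CPM in controls and 311, 270.1 and 726 CPM in NICD1/Akt livers (0.88 ± 0.52, SE, adjusted p = 0.520). Krt18 measured 170.4, 191 and 333 CPM in controls and 286, 210.3 and 588 CPM in NICD1/Akt livers (0.65 ± 0.45, SE, adjusted p = 0.545). Library 32 was the highest control and library 35 the highest NICD1/Akt liver for each of these 4 genes. Without library 32 the log2 fold changes were 2.84 for Krt23 (adjusted p = 0.195), 1.90 for Krt80 (0.241), 1.42 for Krt8 (0.245) and 1.02 for Krt18 (0.319). Without library 35 they were 1.15 for Krt23 (adjusted p = 0.801), 0.93 for Krt80 (0.801), 0.28 for Krt8 (0.899) and 0.09 for Krt18 (0.956). None passed either way, and neither did any other gene, with 0 of 13239 called without library 32 and 0 of 13079 without library 35. When the 5 controls other than library 32 were set against the 2-week NICD1/Akt livers, a comparison added after the values were seen and one that mixes the stages, 3 of 6 keratins were higher, namely Krt23 (3.18, adjusted p = 0.0138), Krt19 (2.95, adjusted p = 0.0221) and Krt7 (2.7, adjusted p = 0.0449). In that comparison 6.68% of 12988 genes were higher and 1.29% lower.

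**Figure D3:**
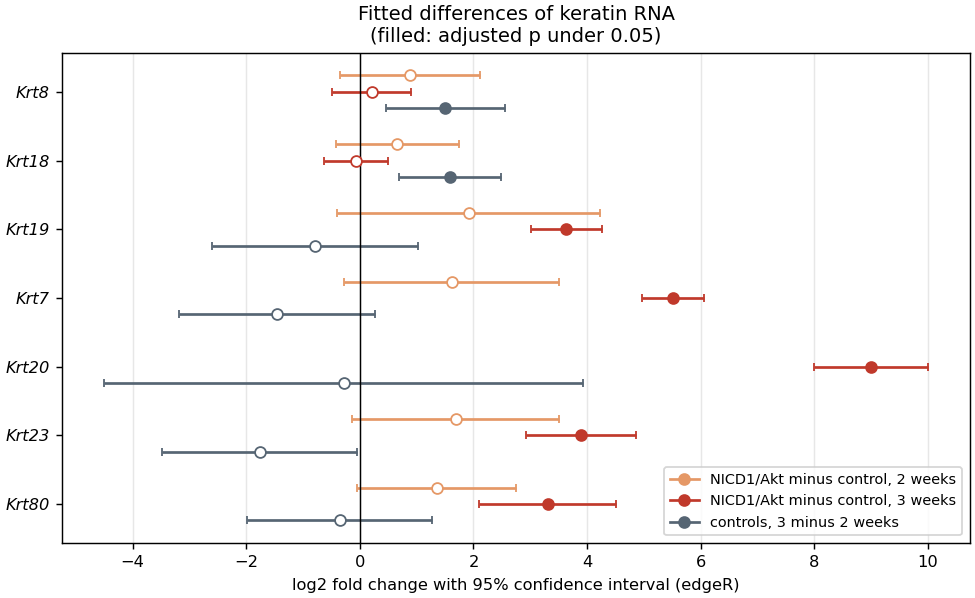
Fitted log2 fold changes of each keratin with 95% confidence intervals, for NICD1/Akt minus control at 2 and 3 weeks and for controls at 3 minus 2 weeks. Filled points passed an adjusted p under 0.05: 5 keratins at 3 weeks, 0 at 2 weeks, and Krt8 and Krt18 among controls, while Krt20 has no point at 2 weeks because its counts were too low.

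Whether the effect of NICD1/Akt differed between the stages was tested over all 12 libraries. It was larger at 3 than at 2 weeks for Krt7, by 3.77 ± 0.97 (SE) on the log2 scale, with an adjusted p of 0.0182. Krt7 was the only 1 of the 7 keratins to pass, against 15% of 13829 genes with a larger effect at 3 weeks. Of all calls of the difference 48.8% were larger at 3 weeks, against 70.1% with upper quartile scaling and 92.2% with library size alone. This call was lost without library 32 (3.15, adjusted p = 0.0523), while 2 of 7 passed without library 12, where 10.2% of all genes did in this direction, and 4 of 7 without library 35, where 23.7% did. The difference was 4.95 for Krt20 (adjusted p = 0.123), 2.08 for Krt23 (0.115), 1.84 for Krt80 (0.141), 1.60 for Krt19 (0.266), -0.78 for Krt8 (0.369) and -0.83 for Krt18 (0.263). The intervals of these 6 all include 0. When each library was left out in turn, the difference ranged from 1.5 (without library 30) to 8.13 (without library 10) for Krt20, from 0.24 (without library 32) to 2.84 (without library 35) for Krt19, from 0.94 (without library 32) to 2.60 (without library 35) for Krt23 and from 1.30 (without library 32) to 3.40 (without library 12) for Krt80.

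Within NICD1/Akt livers, Krt20 and Krt7 were higher at 3 than at 2 weeks. Krt20 rose by 4.66 ± 0.64 (SE) on the log2 scale (adjusted p = 9.86e-04) and Krt7 by 2.30 ± 0.59 (SE, adjusted p = 0.0164), 2 of 7 keratins where 11.1% of all genes were higher. Higher calls made up 38.9% of all calls here and 78.5% with library size alone. The groups did not overlap for Krt20, Krt7 and Krt80, against 21.9% of all genes that were higher without overlap, but Krt80 missed the threshold (1.48, adjusted p = 0.0646). Krt19 (0.82, adjusted p = 0.406) and Krt23 (0.31, adjusted p = 0.691) overlapped between the stages. Without library 33 only Krt20 was called (Krt7 adjusted p = 0.0678), where 4.77% of all genes were higher, and without library 35 the call was made for 6 of 7, where 22.4% were.

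Among 2-week NICD1/Akt livers, library 35 came near the 3-week level for some keratins and not for others. Its Krt19 was 120% and its Krt23 126% of the mean of the 3-week NICD1/Akt livers, and its Krt8 and Krt18 were 100.8% and 96.1% of it. In the same library Krt80 stood at 50.9%, Krt7 at 41.8% and Krt20 at 7.84% of the 3-week mean. Its biliary sum of 5281 CPM exceeded the 4191 to 4901 CPM of the 3-week NICD1/Akt livers. Spp1 alone made up most of each sum, at 4245 CPM in library 35 and 3027 to 3562 CPM in the 3-week NICD1/Akt livers. The sums therefore do not order the other listed genes. This library was singled out after its values were seen, and no test was made of 1 library.

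Controls differed between the stages as well. Krt18 was higher in 3-week than in 2-week controls by 1.58 ± 0.41 (SE) on the log2 scale (adjusted p = 0.0113) and Krt8 by 1.5 ± 0.48 (SE, adjusted p = 0.0295), 2 of 7 keratins where 17.4% of all genes were higher. Higher calls made up 46.1% of all calls here, 29.2% with upper quartile scaling and 29.6% with library size alone. The 3-week controls of both genes lay above all 2-week controls, library 32 included. With library-size scaling neither call was made (adjusted p = 0.0609 for Krt18 and 0.110 for Krt8), and the Krt8 call was lost without any 1 of libraries 30, 31, 10 or 12. Krt7 values of the 3-week controls were all below those of the 2-week controls without passing the test (-1.46, adjusted p = 0.159), and Krt23 came to -1.77 (adjusted p = 0.0961). No overlap between the control groups was seen for 3 of the 7 keratins and for 53.6% of all genes. Apart from library 32, stage and sex-linked RNA move together in these controls, and their parts cannot be told apart.

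Ratios within a library need no scaling between libraries. The Krt8 to Krt18 count ratio was 0.965, 0.813 and 1.07 in 3-week controls and 1.17, 1.19 and 1.17 in NICD1/Akt livers of that stage. The NICD1/Akt values were nearly identical and just above the highest control, a difference of 0.32 in mean log2 ratio (exact two-sided permutation p = 0.1, the smallest that 3 against 3 allows). At 2 weeks the ratio was 0.969, 0.857 and 1.16 in controls and 1.09, 1.28 and 1.24 in NICD1/Akt livers, a log2 difference of 0.28 (exact permutation p = 0.2). The mean log2 ratio of controls was -0.02 at 2 weeks and -0.08 at 3 weeks, close to equal counts.

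The ratios of Krt19 to Krt18 and of Krt7 to Krt8 differed by more. Krt8 and Krt18 are keratins of hepatocytes and of cholangiocytes, so these are not ratios of cell types. The Krt19 to Krt18 log2 count ratio was 3.69 higher in NICD1/Akt livers than in controls at 3 weeks (exact permutation p = 0.1) and 1.38 higher at 2 weeks (exact permutation p = 0.3). For Krt7 to Krt8 the differences were 5.45 at 3 weeks (exact permutation p = 0.1) and 0.43 at 2 weeks (exact permutation p = 0.4). At 3 weeks no library of one group overlapped the other for either ratio, and at 2 weeks both ratios overlapped.

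**Figure D4:**
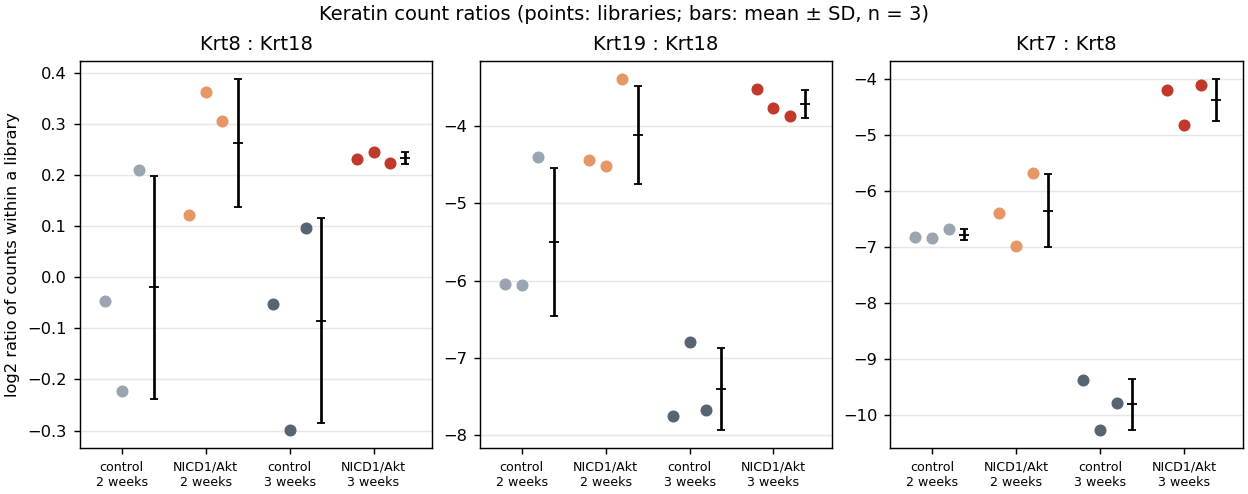
Log2 ratios of counts within each library for 3 keratin pairs, with the mean and SD of each group of 3. The Krt8 to Krt18 ratio spans less than 1 log2 unit over all libraries, whereas Krt19 to Krt18 and Krt7 to Krt8 are 3.69 and 5.45 log2 units higher in NICD1/Akt livers than in controls at 3 weeks.

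Levels of different genes were compared per transcript length, as RPKM on the principal GENCODE M21 transcript. In every group the order began with Krt18, Krt8 and Krt19. In 3-week NICD1/Akt livers the order was Krt18 (426 ± 121 RPKM, SD, n = 3), Krt8 (368 ± 108), Krt19 (29.6 ± 8.86), Krt20 (15.8 ± 3.39), Krt7 (8.30 ± 0.704), Krt23 (2.80 ± 0.935) and Krt80 (1.21 ± 0.197). Krt18 and Krt8 do not differ beyond their spread in this order, while the other steps exceed the SDs of both neighbours. Krt20 moved from rank 7 in controls and 6 in 2-week NICD1/Akt livers to rank 4. With coding length in place of transcript length it ranked 5, behind Krt7, and Krt8 came before Krt18 in NICD1/Akt livers.

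Krt8 and Krt18 together made up 99.4% to 99.7% of the summed RPKM of the 7 keratins in 3-week controls and 92.1% to 94.1% in the NICD1/Akt group. The 2-week controls held 97.1% to 98.8%, with the lowest share in library 32, and the NICD1/Akt livers of that stage 94.6% to 97.0%. Krt19 supplied 0.421% to 0.813% of type I keratin RNA in 3-week controls and 5.5% to 7.12% in NICD1/Akt livers. Krt20 supplied 2.39% to 5.44% of type I and Krt7 1.68% to 2.7% of type II keratin RNA in 3-week NICD1/Akt livers, where controls held at most 0.0197% and 0.0722%. These shares use transcript length, 4094 bases for Krt7 and 1958 for Krt8, whose coding lengths are 1371 and 1470. With coding length, Krt7 came to 24.8 and Krt8 to 490 RPKM in 3-week NICD1/Akt livers, so the share of Krt7 depends on the length used. Over the 7 keratins, the ratio of type II to type I RNA was 0.592 to 0.782 in 3-week controls. In NICD1/Akt livers of that stage it was 0.781 to 0.807. By the shares above, Krt8 and Krt18 stayed the bulk of the RNA of the 7 keratins in every library, from whichever cells it came.

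**Figure D5:**
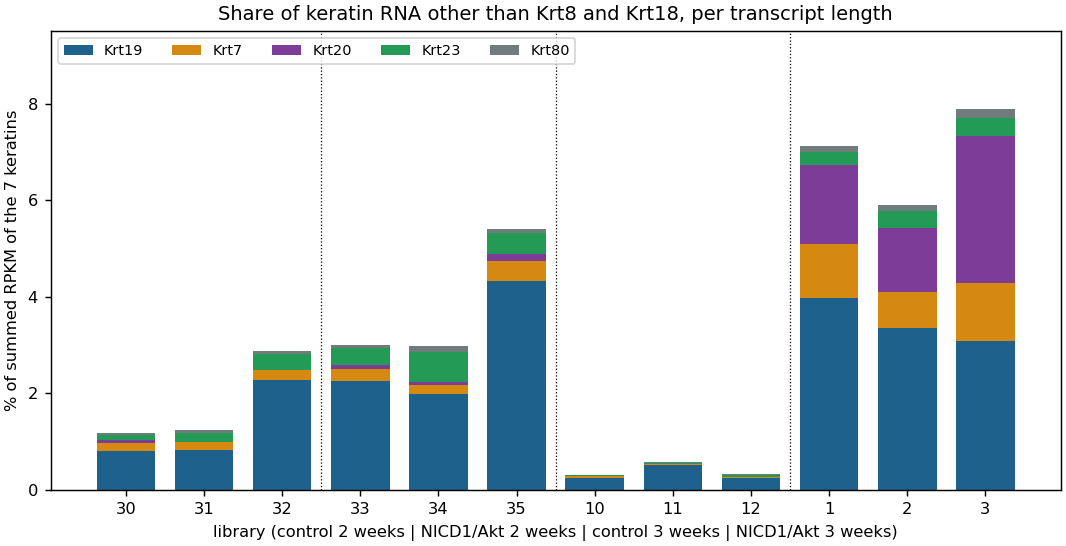
Share of each keratin other than Krt8 and Krt18 in the summed RPKM of the 7 keratins, stacked for every library. The 3-week controls are the lowest, the 3-week NICD1/Akt livers the highest, and Krt20 forms a visible part in libraries 1, 2 and 3 and hardly any in library 35.

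Among the 46 other keratin genes, 28 had no count in any library and 2 reached a mean of 1 CPM in a group, Krt10 and Krt17. Krt17, a keratin of basal and wounded epithelium, had 0 counts in all 3-week controls and 63, 58 and 19 counts in NICD1/Akt livers. It was at least 21.9-fold higher, against a floor of 3 counts over the control group, with an adjusted p of 0.0011. At 2 weeks Krt17 had 0, 1 and 15 counts in controls and 5, 5 and 73 in NICD1/Akt livers, again with libraries 32 and 35 the highest. Krt10, a suprabasal keratin, did not pass at 3 weeks (-0.47, adjusted p = 0.197). Of the squamous and basal markers, Krt5 had 2, Krt14 had 8 and Trp63 had 3 counts over the 3 NICD1/Akt livers of 3 weeks, and Krt13 had 0 counts in all groups. Krt4 had 22 counts there and 0 in 3-week controls. Sbsn, the only 1 of the 10 listed that could be tested at 3 weeks, was higher by 1.90 on the log2 scale (adjusted p = 0.00183). Lor had 97 counts in 3-week controls and 19 in NICD1/Akt livers, and Ivl had 16 and 0.

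Genes that work with keratin filaments were described from lists. Of 14 tested plakin and desmosome genes, 8 rose and 4 fell at 3 weeks, and the median log2 fold change was 1.16. At this stage 38.9% of all genes were higher and 33.1% lower, and the part of the list that fell was near the latter share. The desmosomal plaque and cadherin genes Jup (1.72 on the log2 scale), Dsp (1.35) and Dsc2 (1.22) and the plakin Evpl (3.93) were higher, with adjusted p of 1.64e-06 to 2.42e-05. The 4 lower were Plec (-1.34), which links filaments to hemidesmosomes, Dst (-1.06), Ppl (-2.59) and Pkp2 (-0.69), named after their values were seen. Of 12 genes of keratin binding and turnover, 5 rose and 3 fell, shares near those of all genes at this stage (38.9% and 33.1%), and the median of the list was 0.02. Its members are given as values. Tgm2, a transglutaminase that crosslinks keratins in Mallory-Denk bodies, rose by 1.58, Tchp (trichoplein) by 2.25 and the actin binder Pof1b by 7.42, while the chaperone Dnajb6 fell by 0.66. The others that fell were Sqstm1 (-0.85) and Hspb1 (-0.94), and the others that rose were Fbf1 (1.20) and Sfn (1.26), also named afterwards.

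At 3 weeks, the stage of the list counts that follow, 38.9% of all genes were higher and 33.1% lower. Of 8 other intermediate filament genes tested, 6 were higher and 0 lower, with a median log2 fold change of 3.34. They included Vim (3.17, adjusted p = 2.09e-05), the filament of mesenchymal cells, Nes (3.51), Synm (3.88) and the nuclear lamin Lmnb1 (3.89), besides Nefh (4.71) and Des (0.89), which were named after their values were seen. Of 14 tested biliary genes other than keratins, 13 rose, among them Pkhd1 (4.37), Spp1 (6.61) and Cldn7 (6.11), and Onecut1, named after its value was seen, fell by 1.41, for a median of 3.22. Markers of stellate cells and fibroblasts (8 of 10 tested, median 2.16) and of proliferation (8 of 8, median 6.15) were higher too, where the median of all genes was 0.06. At 2 weeks 0 genes of any of these lists passed, and neither did any other of the 13041 genes tested. An unadjusted p under 0.05 was found for 8.59% of all genes, 3 of 13 plakin and desmosome genes and 0 of 13 biliary genes. The part of these lists in the keratin values was not tested.

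The genes most like each keratin over the 12 libraries, by Pearson correlation of log2 CPM among 12746 genes, are given as a description. The 12 points share groups, stages and libraries, and likeness follows them. Krt8 and Krt18 correlated at 0.97 with each other and at 0.12 to 0.55 with the other 5 keratins, which correlated at 0.73 to 0.93 among themselves. Closest to both Krt8 and Krt18 was Lmna (0.978 and 0.976), a nuclear lamin, and Gas2l3, a cytoskeletal linker, was among the first 3 for both. The first genes for the others were Ctbp2 for Krt7 (0.996), Ripor1 for Krt19 (0.990), Cubn for Krt20 (0.983), Olfml2a for Krt23 (0.985) and Dclk1 for Krt80 (0.964). Cubn, the cubilin receptor of absorptive epithelia, resembled Krt20 in level too, with 0.0514 and 0.0575 CPM in 2- and 3-week controls, 0.931 CPM in 2-week and 37.9 CPM in 3-week NICD1/Akt livers. The next genes were Rab31 and Zfr2 for Krt7, Nck2 and Mamld1 for Krt19, Shisal1 for Krt20, Egflam and Ift57 for Krt23, and Mcf2l and Prkar2b for Krt80.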

How the data were processed

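RNA of 12 mouse livers was sequenced as stranded poly(A) libraries, and the authors deposited raw counts per gene, in a table for each stage. The reference is mm10 in the methods but GRCm39 in the submitters' processing notes, which also list STAR 2.7 and Subread 2.0.6, so coordinates are given only for RefSeq windows. Gene IDs carried GENCODE M21 symbols in 21573 of 21807 cases.

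Counts were tested with edgeR 4.0.16 in R 4.3.3 (TMM, filterByExpr, glmQLFit and glmQLFTest, Benjamini-Hochberg over all genes tested). The fit of a stage used its 6 libraries, and comparisons between stages all 12 in 4 groups. CPM shown are TMM-scaled over all 12 libraries, and RPKM divide them by M21 transcript length. Every adjusted p is from edgeR's quasi-likelihood test unless another tool is named. Ratios were compared by exact permutation with scipy 1.17.1.

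Groups were taken from the labels, and library numbers are those of the titles. The members and lists were chosen with earlier results of these data known. The named genes were the 7 keratins, other keratins with a mean of at least 1 CPM in a group, up to 4 genes per list by smallest adjusted p at 3 weeks, and the 3 genes most correlated with each keratin (log2 CPM with a prior count of 2), of which some are not reported here. The chi-square per gene between libraries of a group was 4.96 to 136, so none was taken as a repeat deposit. The fits were tested on simulated counts. The alternatives were DESeq2 1.42.0, a likelihood ratio test, limma-voom (limma 3.58.1), other scalings and filters, thinned counts, all 12 libraries in 1 fit, all 6 controls and leaving out each library. The table of 50-base stretches was made from M21 transcripts.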

Additional observations from a re-analysis of the deposited data

Results flagged for a closer look

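The effect of NICD1/Akt on Krt7 differed between the stages by 3.77 on the log2 scale (edgeR, adjusted p = 0.0182), 5.52 at 3 weeks against 1.62 at 2 weeks. Krt7 was 1 of 7 keratins called, where 15% of 13829 genes had a larger effect at 3 weeks. From 2 to 3 weeks Krt7 came to 2.30 within NICD1/Akt livers and to -1.46 within controls, the latter without passing. The stages also differ in sex-linked RNA, which cannot be told apart from time. All 3 NICD1/Akt livers lay above all controls at 3 weeks, and 1 of 3 (library 35) did at 2 weeks. The difference was 3.15 to 4.98 when each library was left out in turn, and without control library 32 its adjusted p was 0.0523. The groups of 3 libraries were too small to be tested for single libraries that stand apart.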

How the results depend on the processing

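The 5 keratins called at 3 weeks were called under all 18 alternatives of that comparison, and 0 were lower. Direction changed for uncalled values. Krt18 at 3 weeks (-0.07) came to 0.093 with upper quartile scaling, 0.65 with library size, 0.40 with all 6 controls, 0.45 with all but library 32, and -0.32 to 0.16 when a library was left out. Krt8 at 3 weeks ranged from -0.049 to 0.55 when a library was left out. At 2 weeks Krt18 was -0.32 and Krt8 -0.027 with all 6 controls, and -0.39 and -0.064 with all but library 32. These differ by construction, since 3-week controls held more of both. Between the controls of 3 and 2 weeks, Krt20 was 0.090 with limma-voom and -3.47 to 3.16 when a library was left out, Krt19 -1.19 to 0.55 and Krt80 -1.91 to 0.17. Counts of keratins called moved as follows. At 2 weeks it was 3 with all controls but library 32, an alternative chosen after seeing the data, where 6.68% of all genes were higher. For the difference between stages it was 2 with DESeq2, 2 with the likelihood ratio test and 0 to 4 when a library was left out (0 without library 32, 2 without library 12 and 4 without library 35). The share of all genes with a larger effect at 3 weeks moved as well. This share was 15% in the main fit, 19.6% with DESeq2 and 18.8% with the likelihood ratio test. Without library 32 it was 10.1%, without library 12 10.2% and without library 35 23.7%. For NICD1/Akt livers at 3 against 2 weeks the count of keratins was 1 to 6 when a library was left out, where 4.77% to 22.4% of all genes were higher. For the controls, higher keratin calls were 1 with upper quartile scaling, 0 with library size and 1 to 2 when a library was left out. Of all genes, 11.8%, 9.29% and 13.2% to 20.2% were higher in these fits. Lower keratin calls were 1 with the likelihood ratio test (Krt23) and 0 to 1 when a library was left out (Krt23 without library 30, Krt7 without library 35). Of all genes, 23.9% were lower with the likelihood ratio test, 17.4% without library 30 and 24.5% without library 35. With all 6 controls the log2 ratio of Krt19 to Krt18 was 2.34 at 2 and 2.73 at 3 weeks, and that of Krt7 to Krt8 was 1.95 and 3.93. The cause of these moves was not tested. Of 920 values under alternatives, 848 kept their direction and their side of the threshold or stayed within the spread. No paired analysis was possible because the labels give no replicate numbers shared by the groups. Library-size scaling moved the median of all genes by over 0.1 in each comparison, to 0.77 at 3 weeks. Depth limits Krt20, Krt23 and Krt80 in controls, where 1 to 3 counts decide a value.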
